A study of Mus musculus and Homo sapiens with 6 samples.

Results

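The 9 genes described here encode inhibitors that act in TGF-beta signalling at successive steps: the membrane proteins Bambi and Pmepa1, the inhibitory SMADs Smad6 and Smad7, the ubiquitin ligases Smurf1 and Smurf2, and the nuclear co-repressors Ski, Skil and Tgif1. They were taken by name from 21900 protein-coding mouse genes, and all 9 were found in the gene table. For each gene, every ATAC-seq peak inside it or within 50 kb of either annotated end was collected. This gave 88 peaks in the library from 25000 cells, 90 from 50000 cells, 78 from 75000 cells and 84 from 100000 cells. Where the peaks of the 4 lists overlapped they were merged, which left 104 regions of 55702 in the whole genome.

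ATAC-seq marks open chromatin through the Tn5 transposase, which inserts sequencing adapters into accessible DNA. The cells were NMuMG, an epithelial line from mouse mammary gland, of the line's own genotype, below passage 10, labelled as time 0 h, grown with 10% serum and given no other agent in the labels. Libraries were made from 25000, 50000, 75000 and 100000 cells to tune the protocol, with 1 library at each cell number. Replicate error is therefore unknown for every value, and cell numbers could not be tested against each other. The series also lists 2 samples of MDA-MB-231, a human line, labelled GATA3, which were not analysed here. Each list gives a position and a whole-number score for every peak and no read counts, so sequencing depth is unknown. The lists held 38878 to 45530 peaks, and the lowest score in each was 8, and weaker signal would not be listed. Scores are given in the order of 25000, 50000, 75000 and 100000 cells throughout. Of 11 epithelial marker genes, 5 had a peak at their start in all 4 libraries, among them Krt8 (51, 61, 67 and 79), Elf3 and Cdh1. None was listed in any library at the start of Epcam, Cldn3, Cldn7, Esrp1 or Grhl2, of which Grhl2 alone had peaks inside the gene, and Cldn4 had a start peak in 2 libraries. The same count was 1 of 8 for fibroblast markers (Col1a1), 1 of 6 for blood markers (Spi1) and 0 of 4 for endothelial markers. Cdh1, Krt19, Col1a1 and Spi1 had no listed start, so a peak near either of their annotated ends was counted. A start peak, counted in this way, was found in all 4 libraries at 44.9% of all 21900 protein-coding genes. The count of epithelial markers was thus close to that of any genes.

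TGF-beta ligands bind receptor kinases at the cell surface, the receptors phosphorylate SMAD proteins, and these enter the nucleus with Smad4 to act on target genes. Several of those targets encode inhibitors of the same pathway, so that the signal limits itself. In epithelial cells such as NMuMG the pathway is known for growth arrest and for the change to a mesenchymal form.

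All 9 genes had a peak in their start window in all 4 libraries, where 44.9% of the 21900 protein-coding genes did. The start window is the 1 kb to either side of a transcription start. RefSeq starts (GRCm38.p6, the assembly named mm10) were at hand for 5 of the 9 genes, namely Smad6, Smurf1, Smurf2, Ski and Tgif1. For Smad7, Skil, Bambi and Pmepa1, as for every gene without a table start, a peak near either annotated end was counted. The share of all genes with such a peak in all 4 libraries was 45.9% among those with a table start and 40.7% among those tested at both ends. The 9 genes were chosen as a pathway with earlier results of these data known, so the count describes them and was not tested.

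The promoter sequences of 5 starts are printed to show what DNA lay under, or beside, the peaks. Smad6 is shown for a palindromic SMAD motif at its start. Smurf1, Smurf2 and Ski are shown as 3 GC-rich promoters that the peaks covered in different ways, and start number 3 of the 5 listed for Tgif1 is shown as its start with the fullest cover. Each run is the 250 bases before the start, read 5′ to 3′ on the minus strand, on which these genes lie, and the Smad6 run goes on to position 4 after the start. The runs, from RefSeq GRCm38.p6, are chr9:64022056-64022309, chr5:144965831-144966080, chr11:106920716-106920965, chr4:155222536-155222785 and chr17:70851211-70851460, in the order printed. Capitals mark GTCTAGAC in Smad6, and CCGCCC or its complement GGGCGG in the others.
Smad6: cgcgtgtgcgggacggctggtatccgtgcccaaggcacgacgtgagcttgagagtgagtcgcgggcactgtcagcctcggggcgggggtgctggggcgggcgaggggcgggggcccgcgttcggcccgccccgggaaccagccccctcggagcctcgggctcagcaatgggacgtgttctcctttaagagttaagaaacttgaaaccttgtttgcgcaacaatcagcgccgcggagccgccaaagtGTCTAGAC
Smurf1: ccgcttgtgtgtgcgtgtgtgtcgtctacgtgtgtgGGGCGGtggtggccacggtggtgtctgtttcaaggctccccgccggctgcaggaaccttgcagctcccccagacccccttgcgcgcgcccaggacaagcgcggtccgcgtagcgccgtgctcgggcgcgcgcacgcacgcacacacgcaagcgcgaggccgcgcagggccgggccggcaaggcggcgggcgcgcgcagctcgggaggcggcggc
Smurf2: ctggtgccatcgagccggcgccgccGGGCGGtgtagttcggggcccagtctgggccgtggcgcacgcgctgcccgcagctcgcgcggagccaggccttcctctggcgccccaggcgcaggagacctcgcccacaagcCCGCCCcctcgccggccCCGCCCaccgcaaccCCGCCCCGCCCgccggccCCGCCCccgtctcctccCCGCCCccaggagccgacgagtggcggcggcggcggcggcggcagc
Ski: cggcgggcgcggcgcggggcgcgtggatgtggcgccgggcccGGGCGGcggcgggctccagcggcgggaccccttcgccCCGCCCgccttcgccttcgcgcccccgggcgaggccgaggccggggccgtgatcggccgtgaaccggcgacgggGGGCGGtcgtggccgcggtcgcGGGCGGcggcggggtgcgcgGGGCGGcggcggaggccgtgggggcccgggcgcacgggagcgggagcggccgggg
Tgif1, start 3: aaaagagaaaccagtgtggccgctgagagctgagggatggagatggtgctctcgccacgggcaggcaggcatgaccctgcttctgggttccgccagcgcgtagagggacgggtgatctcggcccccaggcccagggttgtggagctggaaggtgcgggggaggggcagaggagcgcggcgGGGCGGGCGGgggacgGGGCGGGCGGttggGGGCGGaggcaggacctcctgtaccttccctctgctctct

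The Smad6 promoter held the palindrome GTCTAGAC, a form of the SMAD binding element, from position -4 to 4 around the start, where no position 0 is counted. The same 8 letters stood in 48 of 21263 promoters of protein-coding genes of the same 300 base length, or 0.226%. The shorter SMAD element CAGAC was found, on either strand, 2 times in the promoter of Smurf1, 2 times in that of Smurf2, and in 3 of the 5 promoters of Tgif1. It was not found in those of Smad6 and Ski, and 48.4% of all promoters held it. CCGCCC, the core bound by SP and KLF factors, had 4 matches in Smad6, 2 in Smurf1, 9 in Smurf2 and 6 in Ski. Tgif1 had 5 at start 3 and 1 at start 4, and 46.2% of all promoters had at least 1. The printed runs of Smurf1, Smurf2 and Ski hold 1, 7 and 5 of these matches, and the others lay after the start. GGCGCC, with matches in 15.3% of promoters, occurred 2 times in Smurf2 and 1 time in Ski. No member promoter in the table held the AP-1 motif TGANTCA (6.99% of promoters), the CRE motif TGACGTCA (2.23%) or the TEAD motif CATTCC (13.6%). Both strands were searched. No match of one motif overlapped that of another, and 4 pairs of matches of the same motif did, as in the run of capitals in Smurf2. A match describes these letters and not a bound site, and no match says only that they are not in the window.

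The 300 bases of the Smad6 promoter and of the Smurf2 promoter were covered by peaks in full in all 4 libraries. Those of Smurf1 were covered at 0 bases in the 25000-cell library and at all 300 in the other 3. The Ski promoter was covered at 0 bases in every library. At Ski the peak began 316 or 366 bases upstream of the start and left the start itself outside. Among the 8030 genes with a table start and a start-window peak in all 4 libraries, 3.72% likewise had no start base under a peak in any library, and 88.7% had one under a peak in all 4. The promoter of Ski had a GC share of 85.3%, above 99.9% of promoters. Smurf2 had 80.3%, Smurf1 76.3% and Smad6 66.3%, and the median promoter had 56.3%. The ratio of observed to expected CpG was 1.12 for Ski, 1.13 for Smurf1, 0.898 for Smurf2 and 0.952 for Smad6, against a median of 0.567. The 2 promoters richest in GC thus differed in cover, with that of Smurf2 under peaks and that of Ski beside them.

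The genes differed in how high their start peaks ranked. The score percentile of a peak is its rank among all peaks of the same list, with ties at their midpoint. Skil ranked highest, with a mean percentile of 96.3 over the 4 libraries, followed by Bambi at 92.6, Smad6 at 91.4, Tgif1 at 91.1, Pmepa1 at 88.6, Ski at 81.7, Smad7 at 77.2, Smurf2 at 73.5 and Smurf1 at 53.4. The median of the 9 genes was 88.6, and that of all 9826 genes with a start-window peak in all 4 libraries was 79.0. A mean of 75 or above was reached by 7 of the 9 genes and by 57.1% of those 9826, and a mean of 90 or above by 4 of the 9 and by 26.9%. The ranges over libraries overlapped for all neighbours in this order but Smurf2 and Smurf1. Those of Smad6 (89.5 to 93.8) and Tgif1 (87.9 to 93.7) nearly coincided. The lowest value of Skil (95.2) was just below the highest of Bambi (96.2), whose lowest was 83.8. The highest value of Smurf1 (68.2) was below the lowest of Smurf2 (69.8).

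**Figure D1:**
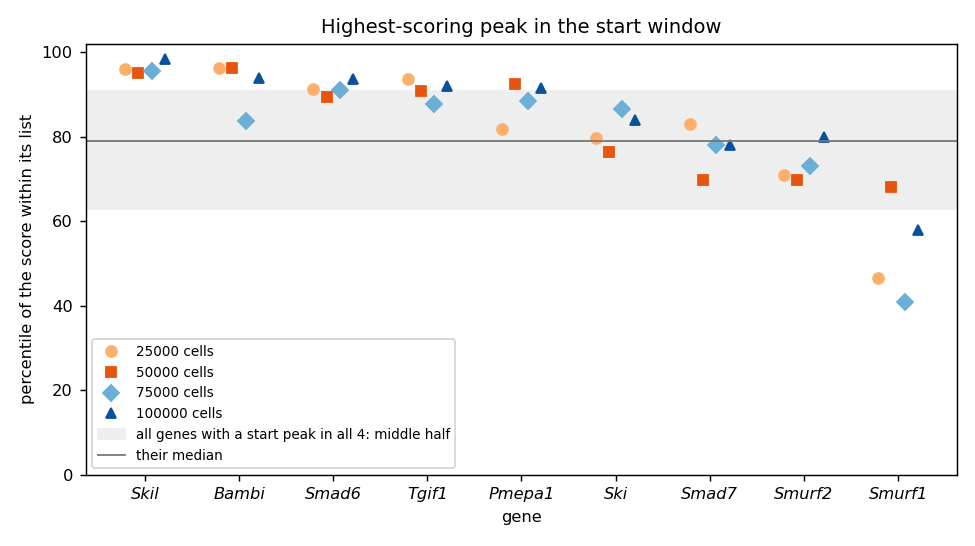
Score percentile, within its own list, of the highest-scoring peak in the start window of each gene, with 1 point per library and genes ordered by their mean. The grey band spans the interquartile range of the mean percentile of all genes with a start-window peak in all 4 libraries (62.9 to 90.8) and the line their median (79.0); Skil lies above the band in every library, and Smurf1 is below it in 3 of 4.

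**Figure D2:**
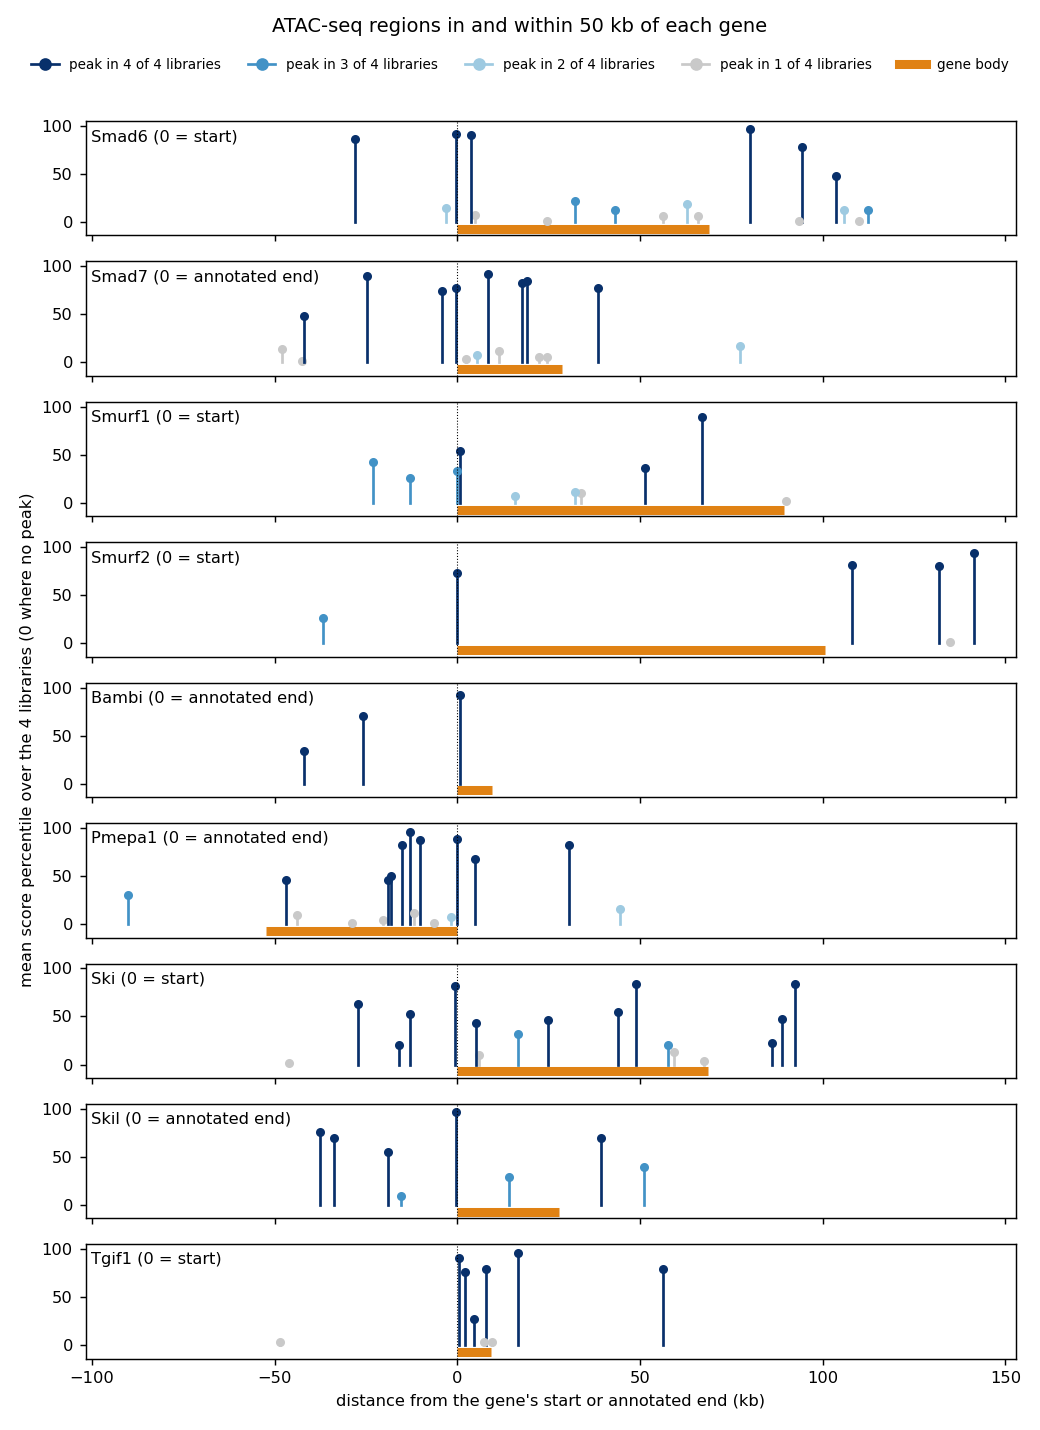
Regions in each gene and within 50 kb of it, by distance of the region's centre in kb from the start (first of 5 for Tgif1, upstream to the left) or, for Smad7, Skil, Bambi and Pmepa1, from the annotated end with the start-window peak, in chromosome direction. Height is the mean score percentile over the 4 libraries with 0 where a library has no peak, colour the number of libraries with a peak, and the bar the gene body; nearly all tall regions are dark, that is, found in all 4 libraries.

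Bambi encodes a membrane pseudoreceptor that resembles a TGF-beta receptor but lacks the kinase part. The gene (ID 68010) spans 3507011 to 3516404 on chromosome 18. Its start-window peak scored 59 at 25000 cells, 72 at 50000, 36 at 75000 and 61 at 100000. The value at 75000 cells stood apart, at the 83.8 percentile of its list, while those of the other 3 libraries lay between the 94.0 and 96.2 percentiles. The region (3507401 to 3508200) lay inside the gene, just beyond its lower end. Only 2 other regions were found in the 109 kb window, both outside genes, and the gene table places no other gene there. The stronger, at 3480701 to 3481450, scored 24, 33, 18 and 26, and the other, at 3464801 to 3465350, scored 11, 12, 8 and 21. Bambi was the only one of the 9 genes whose regions were all found in all 4 libraries.

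Pmepa1 encodes a membrane protein that binds receptor-activated SMADs and keeps them from the receptor. The gene (ID 65112) spans 173224458 to 173276731 on chromosome 2. Its upper end had a region at 173276201 to 173276950 with scores of 31, 56, 43 and 53. Inside the gene, 6 regions were found in all 4 libraries, and the 3 strongest lay close together between 173261301 and 173267100. The middle one of these, at 173263401 to 173264300, scored 55, 70, 64 and 69, which is above the start peak in every library. The others scored 37, 33, 34 and 36, and 34, 47, 44 and 41. The gene and its flanks held 17 regions, of which 9 were found in all 4 libraries. Beyond the upper end, a region 30.5 kb away scored 35, 61, 23 and 36. The highest-scoring regions missing from some libraries were 1 inside the gene with 15 at 100000 cells alone, and 1 outside it with 14, 11 and 14, missing at 75000 cells.

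Smad6 and Smad7 are the inhibitory SMADs, which occupy the receptor or compete with the signalling SMADs. At Smad6 (ID 17130, 63953076 to 64022085 on chromosome 9), which is known mainly for limiting BMP signals, the start region, 64021701 to 64023350, held 2 neighbouring peaks in each library, and at 50000 cells a further one between them with a score of 11. The peak over the start scored 44, 46, 48 and 49. The peak upstream of it scored 20, 48, 35 and 60. Within their lists, the peak over the start ranked at the 91.2, 88.6, 91.1 and 89.8 percentiles. The upstream peak ranked at 65.0, 89.5, 83.0 and 93.8. The upstream peak was thus the higher of the pair at 50000 and 100000 cells and the lower at 25000 and 75000. A further region 3.66 kb into the gene scored 47, 45, 41 and 61. The highest score of the window was outside the gene, at 63941551 to 63942300 in the non-coding gene Gm36033, with 65, 68, 74 and 88. A region at the start of the non-coding gene 1110036E04Rik scored 37, 52, 37 and 37. Of the 18 regions in the Smad6 window, 6 were found in all 4 libraries.

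Between the region at 3.66 kb and its far end, the Smad6 gene held only regions that were missing from at least 1 library. The highest of these, at 63989651 to 63990200, scored 9, 10 and 15 from 50000 cells up. The second highest region missing from some libraries lay upstream of the start, with 9 at 50000 and 14 at 100000 cells. Scores of the incomplete regions inside Smad6 ran from 8 to 15, near the lowest score listed.

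Smad7 binds the activated receptor and brings Smurf ligases to it. The gene (ID 17131) spans 75367365 to 75395935 on chromosome 18. At its lower end the highest-scoring peak had scores of 32, 25, 30 and 32. At 25000 and 50000 cells that peak, at 75366301 to 75366950, stopped short of the Smad7 end. A separate peak over the end scored 13 and 17 there. At 75000 and 100000 cells the highest-scoring peak covered the end. The merged region, at 75366301 to 75367700, also lies at the upper end of the non-coding gene Gm20544, so that the 2 genes share it. Inside Smad7, 3 regions were found in all 4 libraries, and the first, at 75375301 to 75376100, scored 47, 68, 42 and 50, above the start peak in each. The others scored 34, 36, 37 and 35, and 24, 50, 36 and 57. A region below the gene, at 75341951 to 75343500, scored 40, 45, 46 and 51. Of 16 regions in the window, 8 were found in all 4 libraries. The highest missing ones were a region outside genes with 17 at 75000 cells alone, and 2 that reached 14, one in Smad7 at 25000 cells alone and one in the neighbouring gene Ctif with 10 at 25000 and 14 at 100000 cells.

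Smurf1 and Smurf2 are ubiquitin ligases that mark SMADs and receptors for degradation. Smurf1 (ID 75788, 144876495 to 144965899 on chromosome 5) had the lowest-ranked start peaks of the 9 genes. Over the start itself, a region at 144965601 to 144966200 scored 14, 11 and 19 in the libraries from 50000 cells up and had no listed peak at 25000 cells. Just inside the gene, at 144964801 to 144965500, a region scored 14, 24, 13 and 19. The start base of Smurf1 was thus under a peak in 3 libraries, and the gene counts as having a start-window peak in all 4 through the second region. Farther in, at 67.1 kb from the start, a region at 144898351 to 144899150 scored 38, 54, 39 and 57. Of the 10 regions in the window, 3 were found in all 4 libraries. The window also held the highest-scoring incomplete region of all 9 genes, in the neighbouring gene Kpna7, with 11, 25 and 25 and no peak at 75000 cells.

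At Smurf2 (ID 66313, 106820061 to 106920747 on chromosome 11), 1 region covered the start, at 106920151 to 106921200, with scores of 23, 25, 26 and 34. The rest of this 101 kb gene held no listed peak in any library. All 3 other regions of the window found in every library lay beyond the far end of the gene, at neighbouring genes. The region at the start of Polg2, a mitochondrial DNA polymerase subunit gene, scored 54, 57, 59 and 54. The region at the neighbouring starts of Ddx5, an RNA helicase gene, and Cep95 scored 23, 48, 32 and 36. Another region, farther inside Cep95, scored 24, 46, 31 and 39. Regions missing from some libraries were 1 outside genes with a score of 12 in 3 libraries, missing at 75000 cells, and 1 in Ddx5 with 8 at 100000 cells.

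Ski and Skil encode co-repressors that bind SMAD complexes on DNA. Skil had the highest-ranked start peak of the 9 genes, with scores of 58, 66, 63 and 92 at its lower end (31094251 to 31095350). The gene (ID 20482) spans 31095058 to 31122923 on chromosome 3. Its gene body held 1 other region, with 10, 11 and 21 and no peak at 75000 cells. In its flanks, the strongest region, at 31057051 to 31057750, scored 29, 21, 30 and 36, and one near an annotated end of the non-coding gene Gm33694 scored 19, 31, 24 and 25. A region above the gene had 17, 23 and 12 and no peak at 75000 cells. At Skil and Bambi the start-window peak was thus the highest-ranked region of the whole window.

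Ski (ID 20481) spans 155154075 to 155222535 on chromosome 4. Its peak upstream of the start, at 155222851 to 155223700, scored 29, 30, 40 and 39. The gene body held 4 regions found in all 4 libraries, and the strongest, 48.9 kb from the start at 155173251 to 155174000, scored 31, 41, 33 and 46. In the neighbouring gene Morn1 a region scored 29, 37, 40 and 42. The start peak and the 2 strongest other regions of Ski were therefore close in rank, with mean percentiles of 81.7, 84.2 and 83.8. Of 17 regions in the window, 11 were found in all 4 libraries, the highest number among the 9 genes. A region in Ski with 17 at 50000 cells alone, and one with 14, 11 and 16 missing at 50000 cells, were the highest incomplete ones.

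Tgif1 (ID 21815, 70844205 to 70853532 on chromosome 17) encodes a homeodomain co-repressor of SMAD complexes and is listed with 5 starts, all on the minus strand. Their windows together take in most of the 9.33 kb gene. The highest peak of the gene, at 70852651 to 70853400, lay just inside the first start and within 1 kb of the start of the non-coding gene Gm36856, and scored 50, 51, 42 and 54. It covered none of the listed starts. Starts 2 and 3 lay in the next region, at 70850751 to 70852050, with 31, 33, 23 and 30. Start 3 was under a peak in all 4 libraries and start 2 in all but the 100000-cell library. The promoter of start 3 was covered at 290, 300, 300 and 300 of its 300 bases. Those of starts 1, 4 and 5 were covered at 0 bases in every library. Beyond the gene's far end, a region outside genes at 70836601 to 70837350 scored 54, 75, 76 and 65, above the start-window peak in each library.

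In 7 of the 9 windows the highest-ranked region was not in the start window. The same held for 56.2% of the 9826 genes with a start-window peak in all 4 libraries, so that windows of this size often contain a higher-ranked region. At Smad7, Smurf1, Pmepa1 and Ski that region lay inside the gene, at Smad6 in a non-coding gene beside it, at Smurf2 at the start of Polg2, and at Tgif1 outside genes. By the position of their centres, 13 of the 104 regions were within 1 kb of a start of the gene itself and 44 elsewhere inside it. Another 6 were at the start of another gene, 14 inside another gene and 27 outside genes. Either annotated end counted as a start for genes without a listed one. The same classes are not given for the windows of other genes.

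Peaks were denser around these genes than around the median gene. Averaged over the 4 libraries, Smad7 had 9.53 peaks per 100 kb of window, Ski 8.61, Smad6 8.58, Pmepa1 8.21, Tgif1 7.32, Skil 5.87, Smurf1 3.83, Bambi 2.74 and Smurf2 2.74. The median of the 9 was 7.32, that of all protein-coding genes 2.73 and that of the genes with a start-window peak in all 4 libraries 4.37. Bambi and Smurf2 were thus at the middle of all genes (50.3 and 50.2 percentiles), and Smad7 was at the 93.3 percentile. These counts include peaks of neighbouring genes. Of the 340 peaks in all, 282 had a start or end of the member as their nearest protein-coding one.

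**Figure D3:**
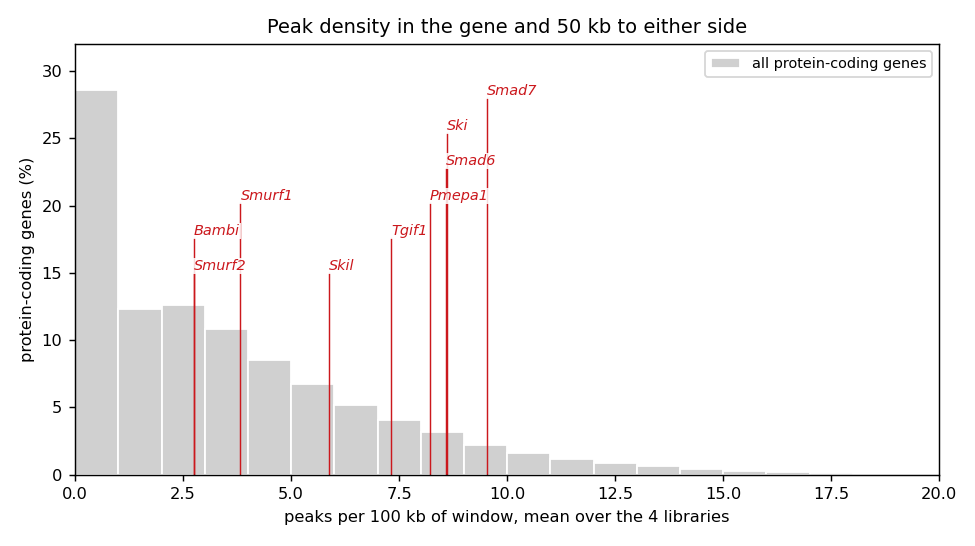
Peaks per 100 kb of window (gene and 50 kb to either side, mean over the 4 libraries) for all protein-coding genes as grey bars, with the 9 genes as red lines whose height only separates the names. Smad7, Ski, Smad6 and Pmepa1 have 8.21 or more, against a median of 2.73 over all genes.

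Of the 104 regions, 55 (52.9%, exact Clopper-Pearson 95% interval 42.8 to 62.8, counting error only) were found in all 4 libraries, and 46.3% of all merged regions were. A further 27 (26.0%, 17.9 to 35.5) were found in 1 library, compared with 26.2% of all regions. Both shares of all regions lie within these intervals. Presence followed the score of the region in the 9 windows. Part of this is built in, because the highest score over the libraries sets the class and scores under 8 are not listed. Among regions whose highest score was 50 or above, 16 of 16 were found in all 4 libraries, and of those with 25 to 49, 26 of 27. With 15 to 24 the count was 11 of 20, with 10 to 14 it was 2 of 25, and with 8 or 9 it was 0 of 16. The shares of all regions in the same classes were 100.0%, 96.6%, 57.2%, 9.35% and 0.205%. Regions of the 9 genes found in 1 library had a median score of 9 and a highest score of 17. The exception at 25 or above was the Kpna7 region in the Smurf1 window.

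**Figure D4:**
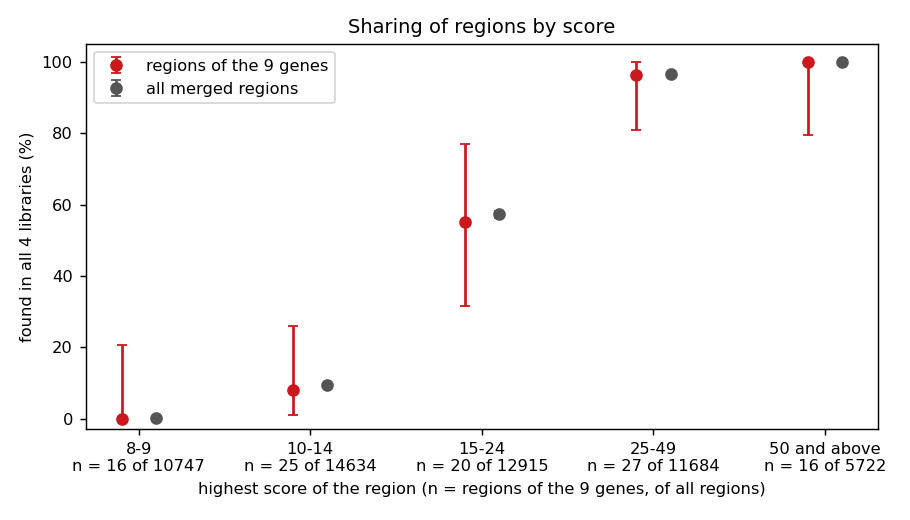
Percentage of regions found in all 4 libraries by the highest score of the region, for the 104 regions of the 9 genes (red) and for all 55702 merged regions (grey), with exact Clopper-Pearson 95% intervals. Both rise from near 0 at scores of 8 and 9 to 100% or nearly so at 50 and above, and the grey points lie within the red intervals in each class.

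A peak was present in 77 of the 104 regions at 25000 cells, 79 at 50000, 71 at 75000 and 77 at 100000. Of all 55702 merged regions, 35681, 40396, 37990 and 41720 had one. The lowest count was at 75000 cells for the 9 genes and at 25000 cells for the whole genome. As shares of 104 and of 55702, however, the counts at 75000 cells were nearly equal. At 25000 cells the share was higher for the 9 genes than for the whole genome, and this was not tested. Regions missing from 1 library only numbered 4 at 25000 cells, 2 at 50000, 6 at 75000 and 1 at 100000. In the whole genome such regions numbered 2951, 1363, 2034 and 1068 in the same order, and were thus most frequent at 25000 cells. Regions found in 1 library only numbered 9, 8, 5 and 5 in the order of cell number, and 2521, 4146, 3215 and 4725 in the whole genome. These counts have no replicate check.

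The other genes of the pathway were counted in the same way, in 5 lists with 44 genes, all found by symbol, of which 35 had a start-window peak in all 4 libraries, 3 in some and 6 in none. Over all protein-coding genes these shares were 44.9% in all 4, 7.75% in some and 47.4% in none. All 3 ligand genes had such a peak, with Tgfb3 (30, 39, 30 and 22) and Tgfb2 (18, 25, 39 and 25) ranked above Tgfb1 (8, 13, 14 and 11). Of 11 receptor genes, 9 did, led by Tgfbr1 (46, 54, 61 and 41), the type I receptor, Acvr2b (27, 48, 36 and 48) and Tgfbr2 (28, 22, 28 and 43), while Bmpr1b had none and Tgfbr3 had one (12) at 100000 cells. Of 6 signalling SMAD genes, 5 did, with Smad3 (44, 60, 46 and 50) the highest, then Smad2 and Smad1, and Smad9 had none. All 12 target genes did, led by Id2 (51, 89, 65 and 65), Klf10 (44, 72, 77 and 77) and Ccn2 (55, 56, 50 and 56).

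A list of 12 other negative regulators, with extracellular antagonists and further ligases, had a start-window peak in all 4 libraries at 6 genes. That is 50% of the list, close to the 44.9% of all protein-coding genes. Strap (33, 70, 67 and 42), Wwp1 (30, 44, 38 and 51) and Ppm1a (28, 31, 41 and 39) ranked highest. Wwp2 had one in 3 libraries and Nog in 1. Tgif2, Nedd4l, Grem1 and Dcn had none in any library, though Nedd4l had 10 to 14 peaks inside the gene. Grem1 and Dcn, which encode secreted antagonists and of which Dcn was also on the fibroblast list, had no listed peak inside the gene either. The median over all genes of a list, with a gene at 0 in a library without a peak, was a mean percentile of 88.6 for the 9 feedback genes, 82.7 for the targets, 71.3 for the ligands, 69.4 for the signalling SMADs, 68.0 for the receptors and 20.1 for the other negative regulators. The lists were not tested against each other, and the same median over all genes is not given.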

How the data were processed

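The authors deposited 1 list of peaks per NMuMG library, with position and a whole-number score whose basis the labels do not state. Bowtie 0.12.8, bedtools 2.17.0, Picard 1.107, cutadapt and SAMtools are named in the submitters' processing notes, with the mouse build mm10. Neither the peak caller's settings nor any read shift for Tn5 was found in the labels. Scores were ranked only within a list.

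Positions were counted from 1. Peaks sharing at least 1 base were merged across lists. Genes and 300 base promoters came from RefSeq tables of GRCm38.p6; 17492 of 21900 protein-coding genes had a start, and the rest were tested at both annotated ends. No genome sequence was used, so exons and introns were not told apart. Analyses used Python 3.11.15, numpy 2.4.6, pandas 2.3.3 and scipy 1.17.1. Overlap functions were checked on 2000 constructed intervals, partial overlaps included, with 0 wrong calls. The members and gene lists were chosen with earlier results of these data known. All 9 members are described. Regions named were each start region, the highest-ranked other region and up to 2 with the highest score among those missing from a library; up to 3 neighbouring genes were named where a region at their start reached the 75 percentile in a library; further regions found in all 4 libraries were chosen after their values were seen. From each pathway list, up to 3 top genes and those without a peak were named; the 3 with a peak in some libraries were added after their values were seen. Depth is unknown, and intervals cover counting error only.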

Additional observations from a re-analysis of the deposited data

How the results depend on the processing

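All 9 genes kept a start-window peak in every library under windows of 500 bp, either annotated end, and equal numbers of highest-scoring peaks. At Smad7, Skil, Bambi and Pmepa1 either annotated end was already the main setting. Windows of 2 kb and leaving out each library in turn also gave 9, though neither could lower the count. With peaks under the median score of their list left out, 8 of the 9 genes kept such a peak. Smurf1 did not, as its highest start-window peaks scored 14 at 25000 and 13 at 75000 cells, where the list medians were 15. The same setting raised the share of regions found in all libraries to 62.9% and left 207 peaks in the windows. Flanks of 10 kb left 203 peaks and the gene alone 167, as fewer bases were searched. The share was 48.2% to 51.0% under the other settings. Without each library in turn, the share found in all others was 57.4% to 62.1%. Shares of all genes and of all regions are not given under these settings, so these values describe the 9 genes only. With peaks under the median left out, signalling SMADs fell from 5 to 3 of 6 genes and receptors from 9 to 6 of 11. The ligands fell from 3 to 2, the targets from 12 to 11, and the other negative regulators from 6 to 4. Under the other settings the counts of the pathway lists moved by at most 1.5 times. Mean start percentiles moved by less than their SD over the 4 libraries with autosomes alone and with the 500 bp window. No paired analysis was possible because each cell number has 1 library. Unknown depth limits what the absence of a listed peak can show.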

Other observations

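The uncovered start of Ski was set beside other genes. Of the 299 genes with a table start and start-window peaks in all 4 libraries but no start base under a peak, 6.02% had a promoter with a GC share of 80% or above. Of the 7121 genes with a start base under a peak in all 4 libraries, 1.40% did. The median GC share ran the other way, at 58% in the first group and 63% in the second. What sets the cover of a start was not tested.

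The numbers of peaks around the 9 genes did not follow the lengths of the lists. The 25000-cell list, the shortest with 38878 peaks, had 88 of them there, and the 100000-cell list, the longest with 45530, had 84. Counted as merged regions, both libraries had a peak in 77. The difference in peaks was not tested and has no replicate check.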
